A study of Homo sapiens with 19 samples.

Results

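The 10 genes EP400, KAT5, TRRAP, EPC1, EPC2, DMAP1, MRGBP, RUVBL1, RUVBL2 and BRD8 encode subunits of the TIP60-EP400 chromatin remodelling complex and were taken as a list of symbols. All 10 were present among 24234 genes of the RNA table and all 10 passed the minimum of 1 FPKM (a level per transcript length and library size, here averaged over both libraries) that left 11673 genes. The cells were U2OS, an established human osteosarcoma line, grown in DMEM with Tet-approved serum. They had received an siRNA against EP400 or a mock siRNA against GFP, and were harvested 72 hr later. Each condition had 1 RNA-seq library and 1 chromatin immunoprecipitation (ChIP) library each for RNA polymerase II (Pol II), the Mediator subunit MED26 and the histone variants H3.3 and H2AZ. H3K18ac and H3K4me1, histone marks found at active promoters and enhancers, were profiled in mock cells alone, with 1 library each. EP400 itself was profiled in 3 immunoprecipitations whose labels name no siRNA and whose peaks came as 1 list. The 4 inputs were not analysed here. Of these, 3 are labelled as EP400 inputs and 1 as input of EP400 siRNA cells, and no input is labelled mock. With 1 library per condition no difference below has a replicate check or a test, and "higher" and "lower" compare 2 libraries.

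The complex joins a nucleosome remodelling motor to a histone acetyltransferase. EP400, an ATPase of the SNF2 family, places the variants H2A.Z and H3.3 into nucleosomes, and KAT5 (TIP60), an acetyltransferase of the MYST family, acetylates histones H4 and H2A. The remaining subunits bind transcription factors, read histone marks or hold the modules together, and several also serve the related SRCAP, INO80 or SAGA complexes.

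EP400 peaks lay close to the annotated starts of some of these genes and were missing at others, and 4 upstream sequences are shown to set the genes of both kinds side by side. Each is the 250 bases before the gene start in RefSeq (GRCh38.p14), on the gene's strand, with matches to 7 short motifs in capitals. EP400 (chr12:131949692-131949941, plus strand) and DMAP1 (chr1:44213221-44213470, plus strand) had an EP400 peak at the start of the locus. KAT5 (chr11:65712002-65712251, plus strand) and MRGBP (chr20:62796223-62796472, plus strand) had none.
EP400: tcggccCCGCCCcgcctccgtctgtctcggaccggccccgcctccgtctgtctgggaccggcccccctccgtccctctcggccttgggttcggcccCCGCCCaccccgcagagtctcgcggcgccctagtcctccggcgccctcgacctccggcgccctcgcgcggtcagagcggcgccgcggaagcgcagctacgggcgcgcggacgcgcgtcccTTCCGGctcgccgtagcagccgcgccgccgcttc
DMAP1: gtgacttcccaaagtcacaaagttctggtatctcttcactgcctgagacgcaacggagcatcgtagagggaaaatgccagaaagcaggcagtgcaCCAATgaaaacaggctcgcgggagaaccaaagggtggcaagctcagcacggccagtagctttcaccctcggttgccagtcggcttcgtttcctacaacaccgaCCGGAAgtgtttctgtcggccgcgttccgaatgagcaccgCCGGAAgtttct
KAT5: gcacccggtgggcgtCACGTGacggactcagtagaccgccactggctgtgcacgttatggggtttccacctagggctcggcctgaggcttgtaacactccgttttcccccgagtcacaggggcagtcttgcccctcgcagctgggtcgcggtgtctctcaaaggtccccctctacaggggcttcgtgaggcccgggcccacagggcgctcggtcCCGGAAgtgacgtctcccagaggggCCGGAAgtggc
MRGBP: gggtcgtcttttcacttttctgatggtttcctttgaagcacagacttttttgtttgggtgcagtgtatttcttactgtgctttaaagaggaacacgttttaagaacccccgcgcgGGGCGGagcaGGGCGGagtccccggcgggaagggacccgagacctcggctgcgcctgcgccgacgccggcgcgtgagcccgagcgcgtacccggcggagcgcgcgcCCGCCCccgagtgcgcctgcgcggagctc
The motifs were searched on both strands and no matches overlapped. The table held 9 of the 10 genes. The promoter shares below cover all of its entries, also those of genes not analysed here, whereas all members were analysed. The ETS-type core CCGGAA was present in the windows of EP400, DMAP1, KAT5 and RUVBL2, which is 4 of 9 against 14.8% of all 27305 promoters of the same length. In DMAP1 it occurred at 52 and 12 bases before the start and in KAT5 at 36 and 11 bases, whereas EP400 had 1 copy 34 bases before the start. GGGCGG, the GC box, was found in EP400, EPC2, MRGBP and RUVBL2 (42.3% of all promoters), and CCAAT in EPC1, DMAP1, RUVBL1 and RUVBL2 (33.0%). The E-box CACGTG occurred in KAT5 alone of the 9 (6.49% of all promoters) and TATAAA in RUVBL1 alone (11.1%). ATGGCG (6.50%) and TGCGCA (7.05%) were found in none of the 9 windows. The windows of EP400 and EPC2 were 79.2% and 78% G and C, and that of RUVBL1 45.2%, with a median of 58% over all promoters. RefSeq and the older annotation of the RNA table differ at RUVBL1, whose RefSeq span is 46.3 kb longer than its hg19 locus, so its window need not lie at the start used for the peaks. Its sequence is not shown for that reason. RefSeq also lists 1.12 kb more for MRGBP and 1.35 kb less for KAT5 than the hg19 locus, which for KAT5 holds a neighbouring gene as well. The largest difference was at TRRAP, with 134.7 kb in RefSeq and 265.6 kb for an hg19 locus that also holds SMURF1.

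The RNA levels spanned a wide range, and the motor itself was the lowest of the 10 after the siRNA. EP400 stood at 2.28 FPKM in the EP400 siRNA library (the authors' confidence limits 0.162 to 4.41), against 10.04 FPKM in the mock library (0.165 to 19.9). This was 22.8% of the mock level, with the siRNA value inside the mock limits. The log2 ratio, computed as EP400 siRNA FPKM + 1 over mock FPKM + 1 and therefore understated for low genes, was -1.75, and 4.19% of all genes analysed had a lower one. EP400 was the member whose ratio stayed past 2-fold under all alternatives tried, at -1.24 after rescaling both libraries to equal sums (TPM, rows of 200 nt or more). EP400P1, a related sequence 3817 bp from the EP400 locus, had 1.26 FPKM after EP400 siRNA and 3.07 FPKM in mock cells. How like it is to EP400 was not measured, and how reads were split between them is not known. In such bulk libraries, fewer cells with a transcript and less transcript per cell cannot be told apart.

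**Figure D1:**
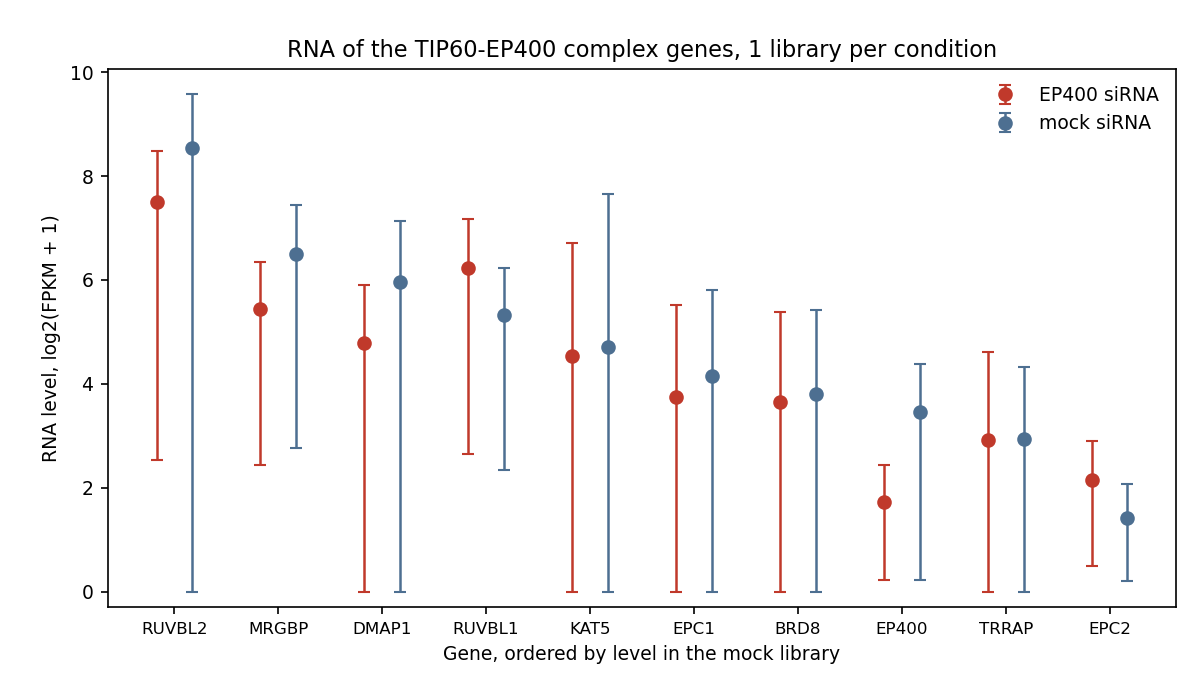
RNA level of each complex gene as log2(FPKM + 1) in the EP400 siRNA library (red, left) and the mock library (blue, right), 1 library each. Bars are the authors' confidence limits summed over a gene's transcripts. The limits of the 2 libraries overlap for every gene, and RUVBL2 has the highest level and EP400 (after EP400 siRNA) or EPC2 (mock) the lowest.

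Among the 10 genes, 4 were at least 2-fold lower after EP400 siRNA, against 22.9% of all genes analysed. They were EP400, DMAP1, MRGBP and RUVBL2, and EP400 is the target of the siRNA. Of the 10 genes, none was at least 2-fold higher, against 6.11% of all genes. The members' median log2 ratio was -0.29 and that of all genes analysed -0.20, with 8 members below 0 and 2 above. The summed confidence limits were apart for 0 of the 10 members and for 0.214% of all genes. These counts depended on the scale, and rescaling to equal sums put the median of all genes at 0.53. On that scale 1 member, EP400, was at least 2-fold lower and 2 members, RUVBL1 and EPC2, were at least 2-fold higher, against 5.39% and 30.9% of the 13518 genes that passed the minimum there. Those shares were 729 genes lower and 4180 higher, whereas 2678 of 11673 were lower and 713 higher as deposited. Centring on the median gave 1826 lower and 1262 higher genes, centring on genes of like local density 1269 and 1016, and centring within each chromosome 1571 and 1162.

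KAT5, the acetyltransferase, had 22.2 FPKM after EP400 siRNA (limits 0 to 103) and 25.2 FPKM in mock cells (0 to 199). Its log2 ratio of -0.17 was above 0 under median centring, TPM, density centring and chromosome centring. Of its 4 transcripts, NM_182709 held 64.0% of the gene's FPKM after EP400 siRNA and 63.1% in mock cells. The KAT5 locus (chr11:65479473-65488409, hg19) also holds RNASEH2C, a subunit of ribonuclease H2, on the opposite strand, which had 17.1 FPKM after EP400 siRNA and 54.1 FPKM in mock cells (log2 ratio -1.61, negative under every scaling tried). The counting is not stated to use strand, and reads of overlapping genes cannot then be told apart.

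TRRAP, the large scaffold related to the PI3K-like kinases that contacts transcription activators and is shared with SAGA, had nearly the same level in both libraries. It stood at 6.60 FPKM after EP400 siRNA (0 to 23.6) and 6.71 FPKM in mock cells (0 to 18.9), a log2 ratio of -0.02 that was above 0 under median centring, TPM and chromosome centring. Of its 2 transcripts, NM_001244580 made up 24.7% of the gene's FPKM after EP400 siRNA and 14.9% in mock cells.

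EPC1 and EPC2, paralogous scaffold subunits related to yeast Epl1, differed in the sign of their ratios. EPC2 had 3.41 FPKM after EP400 siRNA (0.401 to 6.42) and 1.67 FPKM in mock cells (0.150 to 3.19), 204% of the mock level, and its log2 ratio of 0.72 was positive under every scaling tried. EPC1 had 12.4 FPKM after EP400 siRNA (0 to 44.6) and 16.8 FPKM in mock cells (0 to 54.7), with a log2 ratio of -0.40 that was positive under TPM and over coding transcripts alone. The EPC1 value rested largely on 2 noncoding transcripts, which summed to 8.67 FPKM after EP400 siRNA and 14.2 FPKM in mock cells (log2 ratio -0.65). Its 4 coding transcripts summed to 3.75 FPKM after EP400 siRNA and 2.54 FPKM in mock cells (0.42). The largest of them, NM_001272004, had 1.91 FPKM after EP400 siRNA and 2.43 FPKM in mock cells, and NM_001282391 was listed at 0 after EP400 siRNA and had 0.0768 FPKM in mock cells. The other two were higher, as NM_001272019 stood at 1.08 FPKM after EP400 siRNA and 0.0331 FPKM in mock cells, and NM_025209 at 0.768 FPKM after EP400 siRNA and listed at 0 in mock cells. All of these rows had a lower confidence limit of 0. The ratio of EPC1 to EPC2 FPKM was 3.64 after EP400 siRNA and 10.03 in mock cells.

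DMAP1 and MRGBP, small subunits of which DMAP1 is shared with SRCAP and MRGBP binds the chromodomain subunit MORF4L1, were both lower after EP400 siRNA. DMAP1 had 26.5 FPKM after EP400 siRNA (0 to 59.1) and 61.3 FPKM in mock cells (0 to 139.8), 43.2% of the mock level, with a log2 ratio of -1.18. Its main transcript NM_001034023 stood at 22.4 FPKM after EP400 siRNA and 49.9 FPKM in mock cells, and NM_019100 at 4.10 FPKM after EP400 siRNA and 11.4 FPKM in mock cells. MRGBP had 42.2 FPKM after EP400 siRNA (4.41 to 80.0) and 89.1 FPKM in mock cells (5.81 to 172), 47.4% of the mock level, with a log2 ratio of -1.06. Both ratios stayed negative under every scaling tried, and on the TPM scale they were -0.43 for DMAP1 and -0.30 for MRGBP. The nearest coding neighbours of both had negative ratios as well, under every scaling tried. ERI3, an exoribonuclease gene 391 bp from the DMAP1 locus, had 91.8 FPKM after EP400 siRNA and 177 FPKM in mock cells (log2 ratio -0.94). OGFR, the opioid growth factor receptor gene, had 49.2 FPKM after EP400 siRNA and 101 FPKM in mock cells (-1.02). Its listed locus and that of OGFR-AS1 are both 34 bp from the MRGBP locus.

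RUVBL1 and RUVBL2, AAA+ ATPases that assemble into a shared ring, stood on opposite sides. RUVBL1 had 74.2 FPKM after EP400 siRNA (5.26 to 143) and 39.2 FPKM in mock cells (4.07 to 74.3), 189.6% of the mock level. Its log2 ratio of 0.91 was positive under every scaling tried and was past 2-fold under median centring (1.11) and TPM (1.68). RUVBL2 had 181 FPKM after EP400 siRNA (4.81 to 358) and 370.4 FPKM in mock cells (0 to 765), 48.9% of the mock level, with a log2 ratio of -1.03 that was 0.02 when centred on its own chromosome, 19, and 0.0028 when centred on genes of like density. The FPKM ratio of RUVBL2 to RUVBL1 was 2.44 after EP400 siRNA and 9.46 in mock cells. GYS1, the muscle glycogen synthase gene 546 bp from the RUVBL2 locus, had 15.3 FPKM after EP400 siRNA and 43.0 FPKM in mock cells (log2 ratio -1.43, negative under every scaling tried).

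BRD8, the bromodomain subunit, had 11.5 FPKM after EP400 siRNA (0 to 40.8) and 13.0 FPKM in mock cells (0 to 41.9). Its log2 ratio of -0.17 was above 0 under median centring, TPM and density centring. Of its 6 transcripts, NM_001164326 was the highest, at 4.31 FPKM after EP400 siRNA and 5.24 FPKM in mock cells, and NM_001300962 was higher after EP400 siRNA, at 3.21 FPKM against 2.34 FPKM in mock cells. NM_001300961 was listed at 0 in both libraries. Across all members, 26 transcripts were listed, none had limits apart between the libraries, and 21 had a lower limit of 0 in both.

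**Figure D2:**
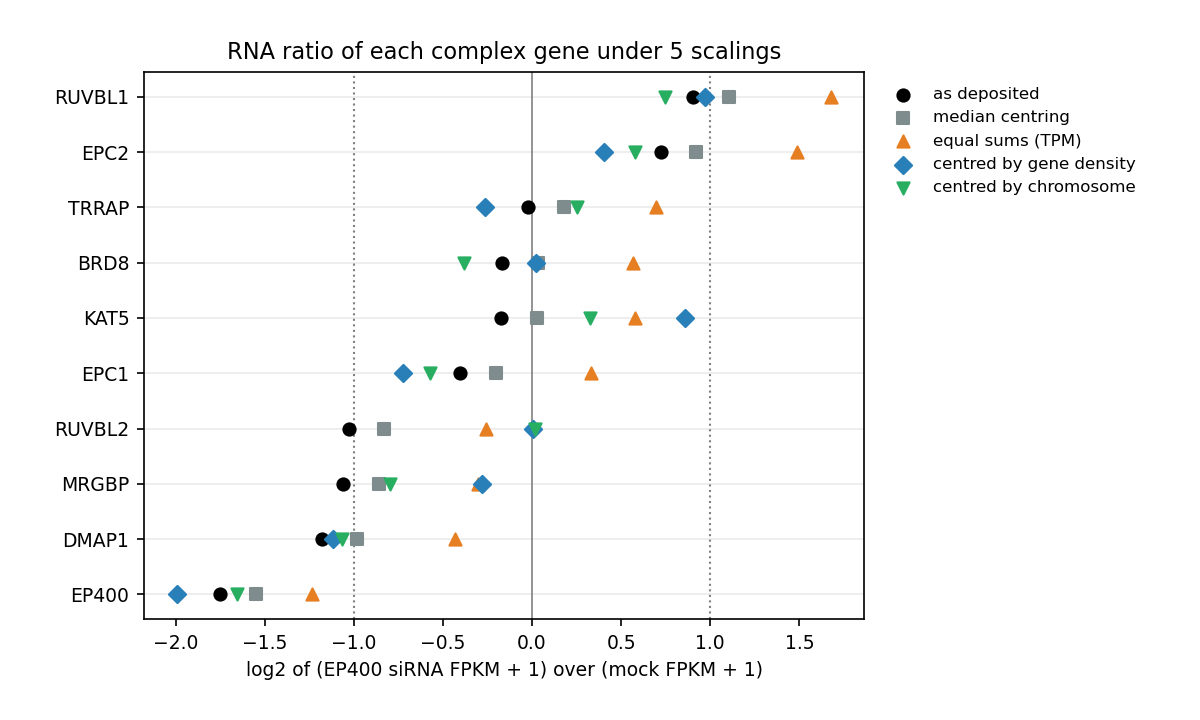
Log2 ratio of each complex gene, EP400 siRNA over mock (FPKM + 1), as deposited (black) and under 4 other scalings. Dotted lines mark 2-fold. EP400 lies below -1 on all 5 scales, RUVBL1 and EPC2 lie above 0 on all 5, and KAT5, TRRAP, BRD8, EPC1 and RUVBL2 fall on both sides of 0.

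Ordered by level per transcript length, the mock library read RUVBL2, MRGBP, DMAP1, RUVBL1, KAT5, EPC1, BRD8, EP400, TRRAP and EPC2. After EP400 siRNA, RUVBL1 stood next to RUVBL2 and EP400 was last. All 9 pairs of neighbours in the mock order overlapped in their limits in both libraries. Of 45 pairs of members, 3 had limits apart after EP400 siRNA (EP400 below RUVBL2, MRGBP and RUVBL1) and 2 in mock cells (EPC2 below MRGBP and RUVBL1). With all genes split into 5 equal groups by mean FPKM, DMAP1, MRGBP, RUVBL1 and RUVBL2 belonged to the highest group, of which 45.2% were at least 2-fold lower, and KAT5, EPC1 and BRD8 to the next, with 31.4%. EP400 and TRRAP were in the middle group, with 19.2%, and EPC2 in the next lower, with 11.9%.

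Of 8 further subunit genes of the complex, 6 were analysed, and none was at least 2-fold lower or higher, with a median log2 ratio of 0.52 that was positive under every scaling tried. On the TPM scale all 8 passed the minimum, and 6 were at least 2-fold higher with rows of 200 nt or more and 4 with all rows, against 30.9% and 27.6% of all genes. The count was 2 of 6 under median centring (10.8% of all genes), 1 of 6 by chromosome (9.95%) and 0 of 6 by gene density (8.70%). ACTL6A, an actin-related subunit, had 26.1 FPKM after EP400 siRNA and 13.5 FPKM in mock cells (log2 ratio 0.90). YEATS4, a reader of acetylated histones, had 4.16 FPKM after EP400 siRNA and 1.74 FPKM in mock cells (0.91). MEAF6, a small acetyltransferase module subunit, had 5.12 FPKM after EP400 siRNA and 3.12 FPKM in mock cells (0.57), and MORF4L2, a paralogue of MORF4L1, had 23.4 FPKM after EP400 siRNA and 16.6 FPKM in mock cells (0.47). All 4 ratios were positive under every scaling tried. MORF4L1, which reads methylated H3K36, had 29.4 FPKM after EP400 siRNA and 34.5 FPKM in mock cells, and VPS72, an H2A.Z chaperone, had 37.1 FPKM after EP400 siRNA and 43.5 FPKM in mock cells, with log2 ratios of -0.23 and -0.22. Under TPM both were positive, and VPS72 also under density centring. ING3 (1.23 FPKM after EP400 siRNA and 0.564 FPKM in mock cells) and MBTD1 (1.04 FPKM after EP400 siRNA and 0.497 FPKM in mock cells) were under the minimum.

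Counts for related complexes are on the deposited scale, where 22.9% of all genes were lower and 6.11% higher. On the TPM scale (rows of 200 nt or more) the medians were 0.44 for SRCAP, 0.88 for INO80, 0.43 for the other MYST complexes, 0.43 for SAGA and PCAF and 1.25 for the kinase list, beside 0.53 for all genes. In the SRCAP list, 1 of 4 genes was at least 2-fold lower and 0 higher (median -0.29), with ZNHIT1 lowest at -1.12 and ACTR6 highest at 0.47. In the INO80 list it was 2 of 11 lower and 0 higher (median 0.11), with INO80E lowest at -1.35 and UCHL5 highest at 0.81. Of 17 genes of other MYST acetyltransferase complexes, 0 were past 2-fold (median -0.25), and the range ran from -0.92 for KAT8 to 0.86 for KANSL2. In the SAGA and PCAF list, 3 of 10 were lower and 0 higher (median -0.44, TADA3 at -1.50 and SUPT20H at 0.59). Of 12 PI3K-like kinases and their co-chaperones, clients or partners of the RUVBL ring and relatives of TRRAP, 2 were lower and 2 higher (median 0.51, PIH1D1 at -1.35 and URI1 at 1.19).

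EP400 peaks were found at the ends of 6 of the 10 genes of its own complex, EP400, TRRAP, EPC1, DMAP1, RUVBL1 and RUVBL2, against 35.3% of all genes analysed. An end here means up to 2 kb to the left or right of the first or last base of the gene's hg19 locus. At the start alone, 5 of 9 genes of known strand had one, against 31.6% of the genes with a known start. RUVBL2 counts in both through a peak on the side of GYS1. With ends of 1 kb the count was 5 of 10, without RUVBL2, and the share of all genes was not computed there. EP400 peaks were more frequent at genes of higher RNA level in general, at 24.2% in the lowest of those 5 groups and 48.0% in the highest. Grouped in the same way, 3 of 4 members in the highest group had a peak, 1 of 3 in the next, 2 of 2 in the middle and 0 of 1 in the next lower. KAT5, EPC2, MRGBP and BRD8 had no EP400 peak anywhere in the locus or within 2 kb. Among the other subunits, 5 of the 6 analysed had an EP400 peak (MEAF6, MORF4L1, YEATS4, ACTL6A and VPS72), and the counts were 1 of 4 for SRCAP, 3 of 11 for INO80, 9 of 17 for the other MYST complexes, 5 of 10 for SAGA and PCAF, and 6 of 12 for the kinase list.

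The EP400 gene carried a 50 bp EP400 peak 36 to 85 bp inside its start (chr12:132434501-132434550, hg19), within the Pol II and MED26 peaks of both conditions, and a 100 bp peak 1386 to 1485 bp inside (chr12:132435851-132435950). DMAP1 had a 100 bp peak across its start (chr1:44679051-44679150) and a 50 bp peak 1175 to 1224 bp upstream (chr1:44677901-44677950). RUVBL1 had the widest EP400 peak of the 10 loci, 200 bp across its start (chr3:127842601-127842800), which overlapped the Pol II and MED26 peaks of both conditions. The TRRAP peak lay 213 to 312 bp outside the lower end of the locus (chr7:98475801-98475900), under Pol II and H2AZ peaks after EP400 siRNA and Pol II and H3.3 peaks in mock cells. A second, 50 bp EP400 peak lay 225 kb from that lower end (chr7:98701301-98701350). This is past the 134.7 kb RefSeq span of TRRAP, in the part of the locus with SMURF1. The RUVBL2 peak lay 1106 to 1205 bp upstream (chr19:49495951-49496050), on the side of GYS1, and overlapped MED26 in both conditions. It lay past the near end of the listed GYS1 locus, 546 bp from the RUVBL2 locus, so it cannot be assigned to RUVBL2 alone. None of the lists carries a height, so how strongly EP400 was enriched at these sites is unknown.

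EPC1 held 8 EP400 peaks in its locus, 1 of them 425 to 574 bp upstream of the start (chr10:32668151-32668300). Another 3 lay between 30576 and 32375 bp inside the gene, at chr10:32635351-32635500, chr10:32636051-32636200 and chr10:32637001-32637150. At that internal site Pol II covered 1900 bp after EP400 siRNA and 2000 bp in mock cells, MED26 covered 1500 bp after EP400 siRNA and 1400 bp in mock cells, and H3K18ac covered 1400 bp in mock cells. At the annotated outer start, by contrast, Pol II had no peak after EP400 siRNA and a 100 bp peak in mock cells, and MED26 had none in either.

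**Figure D3:**
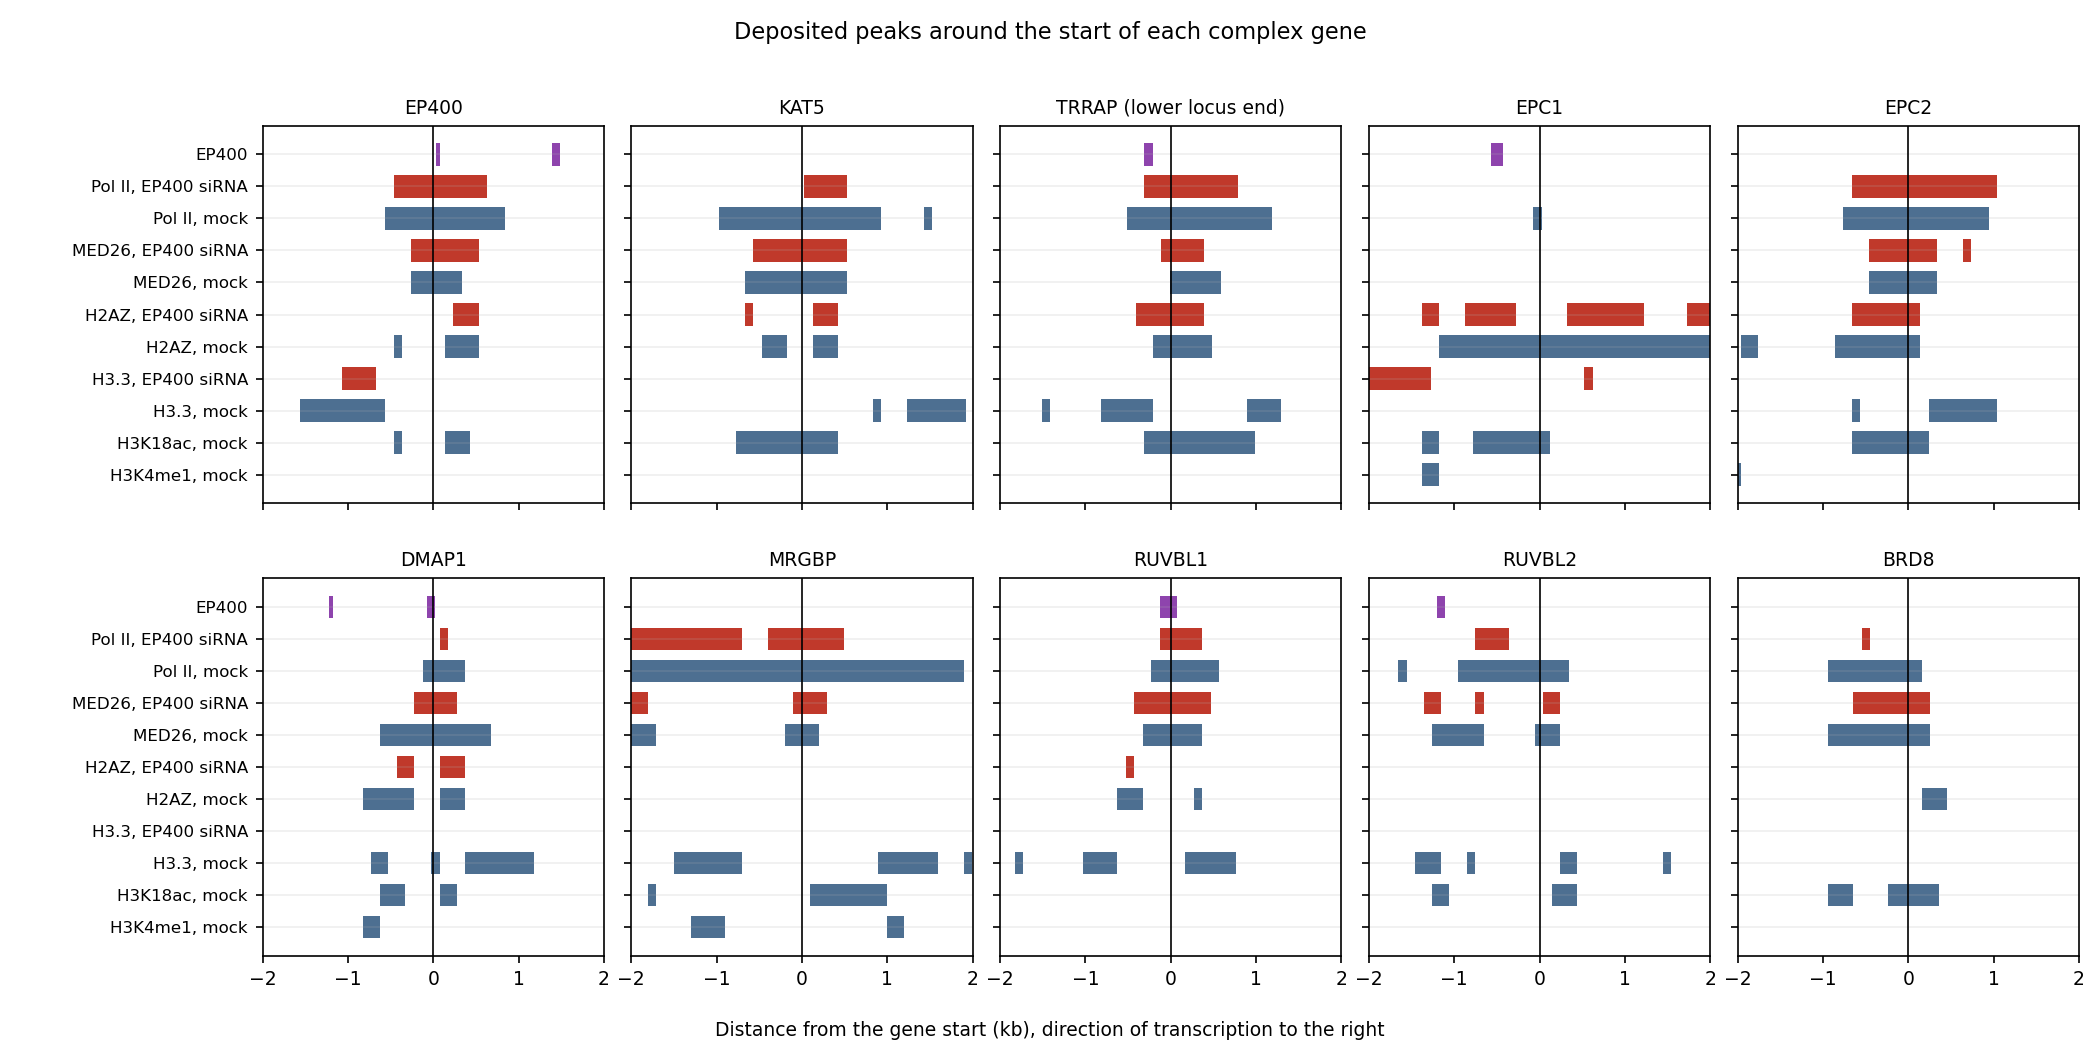
Deposited peaks within 2 kb of each gene start, by antibody and condition (purple EP400, red EP400 siRNA, blue mock), with distance in kb and transcription to the right. For TRRAP the lower end of the locus is shown. EP400 peaks fall on the starts of DMAP1 and RUVBL1 and just inside that of EP400, and H3.3 rows are empty after EP400 siRNA in 8 of the 10 panels.

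Pol II and MED26 peaks were listed at nearly all of these genes in both conditions. Pol II peaks were at the ends of 9 members after EP400 siRNA (80% of all genes) and 10 in mock cells (85.3%), and 1 member, EPC1, had a Pol II peak in mock cells alone, against 7.26% of all genes with a mock peak. No member had Pol II after EP400 siRNA alone (5.84% of genes without a mock peak). The bases under Pol II peaks at the ends were fewer after EP400 siRNA at 9 of 10 members and equal at EPC2, against fewer at 85.2% of all genes. The Pol II peak nearest the start of KAT5 was 500 bp wide after EP400 siRNA and 1900 bp in mock cells. At BRD8 it was 100 bp after EP400 siRNA and 1100 bp in mock cells. At RUVBL2 it was 400 bp after EP400 siRNA and 1300 bp in mock cells. The mock peaks covered both starts, and those after EP400 siRNA covered neither. The BRD8 peak then lay 443 to 542 bp outside the start. The RUVBL2 peak then lay 356 to 755 bp upstream, on the side of GYS1. Neither of these peaks can be assigned to a single gene. RUVBL1, whose RNA was higher after EP400 siRNA, also had the narrower Pol II peak there, 500 bp against 800 bp in mock cells. Over all members 9696 bp were covered after EP400 siRNA and 18496 bp in mock cells, and 11 of 17 mock peaks (64.7%) overlapped a peak after EP400 siRNA, against 70.0% at all genes. The Pol II list held 20987 peaks after EP400 siRNA and 30760 in mock cells. The depth of neither library is known, and the part of list size in these widths was not tested.

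MED26 peaks were present at 9 members after EP400 siRNA (75.5% of all genes) and at the same 9 in mock cells (78.7%), with EPC1 lacking one in both. No member had MED26 in mock cells alone (7.28% of all genes with a mock peak) or after EP400 siRNA alone (11.8% of those without). Bases under MED26 peaks were fewer after EP400 siRNA at 5 of the 9 members, equal at MRGBP and more at EP400, EPC2 and RUVBL1, against fewer at 63.3% of all genes. At the EP400 start the MED26 peak was 800 bp after EP400 siRNA and 600 bp in mock cells, and at RUVBL1 it was 900 bp after EP400 siRNA and 700 bp in mock cells. Of 14 mock MED26 peaks at the members' ends, 13 (92.9%) overlapped one after EP400 siRNA, against 70.0% at all genes.

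At the ends of these genes, H3.3 peaks were fewer after EP400 siRNA, as they were over all genes analysed. H3.3 peaks were at the ends of 3 members after EP400 siRNA (34.3% of all genes) and 8 in mock cells (69%). KAT5, EPC2, DMAP1, MRGBP, RUVBL1 and RUVBL2, 6 of the 8 members with a mock peak, had none after EP400 siRNA, against 58.1% of all genes with a mock peak. EPC1 had H3.3 peaks at its ends after EP400 siRNA alone, 1 of 2 members without a mock peak, against 17.3% of such genes, and BRD8 had none in either. The TRRAP peak after EP400 siRNA lay at the upper, SMURF1 end of the locus, with 58 bp inside the window. TRRAP counts among the 3 through that end alone, and its lower end had H3.3 peaks in mock cells alone. Bases under H3.3 peaks at the ends were fewer after EP400 siRNA at 8 of 9 members with a peak in either list, against 83.4% of all genes. They came to 1584 bp after EP400 siRNA and 10948 bp in mock cells over the 10 members, and 2 of 32 mock peaks (6.25%) overlapped a peak after EP400 siRNA, against 7.65% at all genes. The whole H3.3 list was shorter too, with 41439 peaks after EP400 siRNA and 79838 in mock cells.

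Over whole loci the H3.3 lists differed in both directions. EPC1 had 34 H3.3 peaks after EP400 siRNA and 10 in mock cells, and RUVBL2 had 0 after EP400 siRNA and 13 in mock cells. The locus that TRRAP shares with SMURF1 had 12 after EP400 siRNA and 25 in mock cells. TRRAP spans 134.7 kb in RefSeq and this locus 265.6 kb, so these counts are not those of TRRAP alone. RUVBL1, MRGBP and BRD8 also had none after EP400 siRNA, against 8, 6 and 2 in mock cells. The H3.3 lists moved by chromosome as well. Chromosome 19, with RUVBL2, held 710 H3.3 peaks after EP400 siRNA and 6178 in mock cells, a ratio of 0.115, and chromosome 20, with MRGBP, a ratio of 0.167. On chromosome 10, with EPC1, the ratio was 0.734, from 2363 peaks after EP400 siRNA and 3221 in mock cells, and on chromosome 3, with RUVBL1, it was 0.818. The part of the chromosome in the members' H3.3 counts was not tested.

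**Figure D4:**
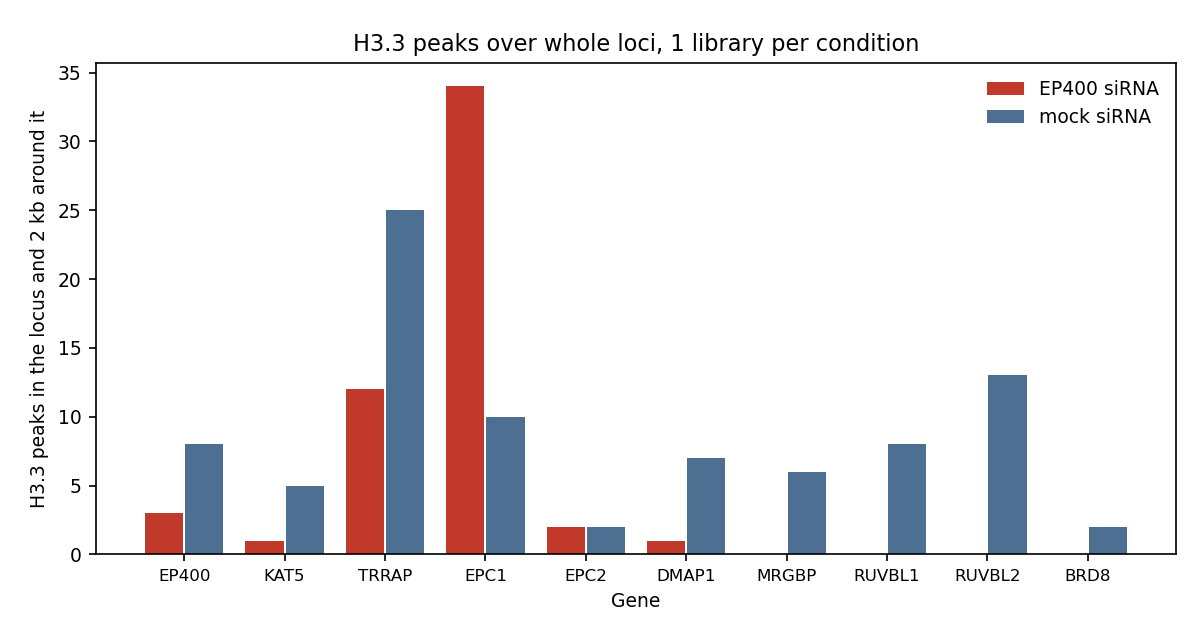
Number of deposited H3.3 peaks in each gene's locus and 2 kb around it after EP400 siRNA (red, left) and mock siRNA (blue, right), 1 list each. EPC1 is the gene with more peaks after EP400 siRNA (34 against 10), EPC2 has 2 in each, and the other 8 have fewer after EP400 siRNA. The bars of TRRAP also count peaks over SMURF1, which shares its locus.

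H2AZ, the other variant handled by this complex, was listed at most of the members in both conditions. Its peaks were at the ends of 7 members after EP400 siRNA (55.4% of all genes) and 8 in mock cells (75.1%). BRD8 was the member that had H2AZ in mock cells alone (28.2% of all genes with a mock peak), no member had it after EP400 siRNA alone (5.85% of genes without one), and MRGBP and RUVBL2 had none in either list. The bases covered were fewer after EP400 siRNA at all 8 members with a peak, against 86.5% of all genes. At the EPC1 start, H2AZ was listed as 4 separate peaks of 200 to 900 bp after EP400 siRNA and as a single region of 3200 bp in mock cells. The whole H2AZ list held 26526 peaks after EP400 siRNA and 58082 in mock cells. Of 17 mock H2AZ peaks at the members' ends, 10 (58.8%) overlapped one after EP400 siRNA, against 48.9% at all genes.

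In mock cells, H3K18ac lay at the ends of 9 members, all but RUVBL1 (72.8% of all genes), and H3K4me1 at 5, EPC1, EPC2, DMAP1, MRGBP and RUVBL1 (30.5%). At KAT5 a 1200 bp H3K18ac peak spanned the start, and at RUVBL1 no H3K18ac peak lay anywhere in the locus, whereas Pol II, MED26 and EP400 peaks covered its start. Several ends are shared with neighbours, since SMURF1 fills the upper part of the TRRAP locus and RNASEH2C shares the KAT5 locus. The listed loci of ERI3 and OGFR begin or end within 546 bp of DMAP1 and MRGBP, respectively. The same holds for GYS1 and LHB near RUVBL2, and for CDC23, KIF20A and NME5 near BRD8. A listed locus can hold several genes, as CDC23 and KIF20A are both listed 59 bp from BRD8. Peaks at the ends near those loci, and at the upper end of the KAT5 locus, cannot be assigned to a single gene. The upper end of the TRRAP locus lies past the RefSeq span of TRRAP, on the SMURF1 side, although its peaks were counted with TRRAP here.

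**Figure D5:**
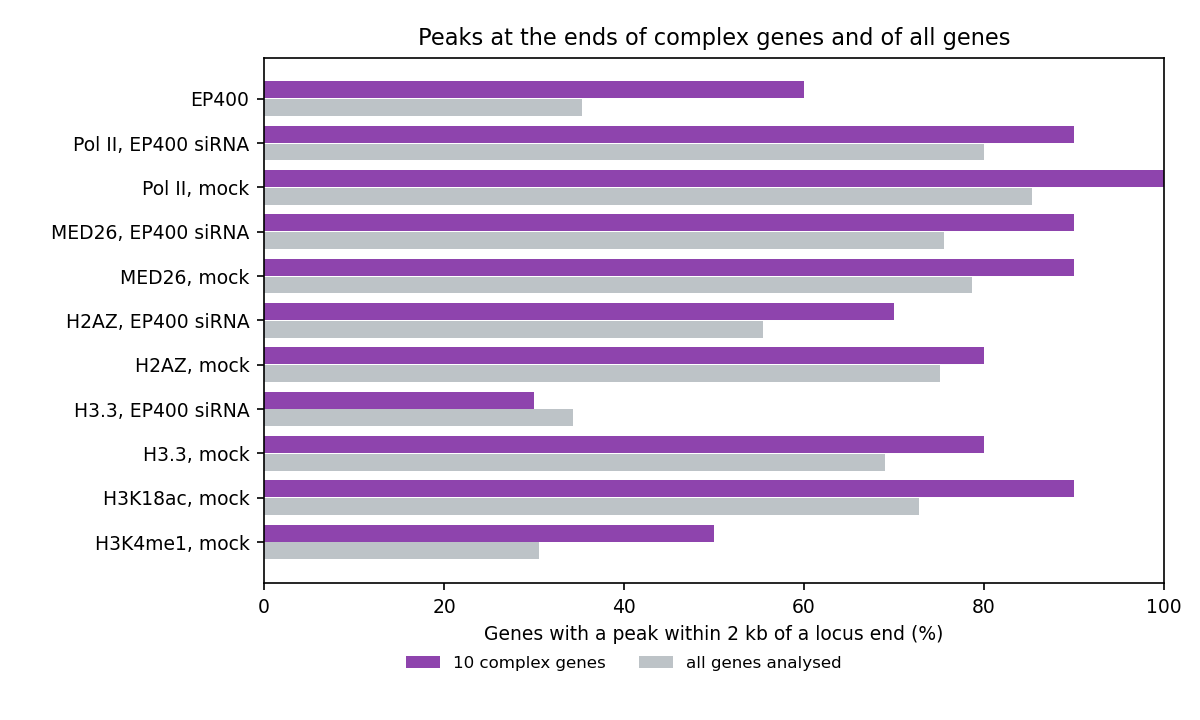
Share of the 10 complex genes (purple) and of all 11673 genes analysed (grey) with a peak within 2 kb of a locus end, in percent, for each deposited list. EP400 peaks are at 60% of the complex genes and 35.3% of all genes, and H3.3 peaks after EP400 siRNA at 30% and 34.3%.

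For the labelled line, mesenchymal genes summed to 1469.9 FPKM after EP400 siRNA and 1261 FPKM in mock cells, and VIM alone held 1132 FPKM after EP400 siRNA and 618 FPKM in mock cells. Of the 7 of 8 analysed, 1 was at least 2-fold lower, against 22.9% of all genes. It was COL1A1 (60.8 FPKM after EP400 siRNA and 376 FPKM in mock cells). Another 2, FN1 and ALPL, were at least 2-fold higher, against 6.11% of all genes. FN1 had 79.7 FPKM after EP400 siRNA and 23.4 FPKM in mock cells. ALPL had 7.75 FPKM after EP400 siRNA and 2.31 FPKM in mock cells. COL1A2 was near 0 in both (0.005 FPKM after EP400 siRNA and 0.011 FPKM in mock cells). Epithelial genes summed to 12.8 FPKM after EP400 siRNA and 70.5 FPKM in mock cells, mostly CLDN4 (10.9 FPKM after EP400 siRNA and 63.4 FPKM in mock cells), with EPCAM, CDH1 and KRT19 under 1. KRT14 had 0.991 FPKM after EP400 siRNA and 6.22 FPKM in mock cells. CLDN4 and KRT14, the 2 of 5 analysed, were both at least 2-fold lower, against 22.9% of all genes. Blood, endothelial and liver lists each summed to under 1 FPKM in both libraries, with CD3E, HBB and ALB listed at 0. The part of these differences in the members' values was not tested.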

How the data were processed

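RNA was extracted with Trizol and libraries were made with TruSeq and KAPA kits, per the labels' protocols. The reads were processed with hg19, Cuffdiff 2.0.2, TopHat2 2.0.8 and Bowtie 0.12.9, per the submitters' processing notes. The RNA values are FPKM with confidence limits for 48669 transcripts, deposited by the authors per the file headers. Sequencing depth is unknown, so no count model was fitted. Each ChIP list holds regions without heights, counted here from 1. The sources used here do not give the peak caller, its threshold or the control library. Symbols came from RefSeq identifiers (47555, or 97.7%, matched a GRCh38.p14 table used for names and promoters alone). Transcripts under 200 nt (2116) and 122 genes whose estimate had failed were dropped, FPKM and limits were summed per gene, and genes with a mean of 1 FPKM or more were analysed with a pseudocount of 1. The fold threshold was 2. Peaks overlapped at 1 bp or more. The members, the gene lists and the motifs were chosen with earlier results of these data known. All 10 members are named; other lists give counts, medians and extremes, and the further subunits every value. Neighbours and transcripts were named after their values were seen. Values were computed in Python 3.11.15 with pandas 2.3.3, numpy 2.4.6 and matplotlib 3.10.9, with the steps tested on simulated data. Alternatives covered pseudocounts, filters, scalings, the width of a locus end, whole loci, wide peaks and overlap; with 1 library per condition, leaving out a replicate was not possible.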

Additional observations from a re-analysis of the deposited data

How the results depend on the processing

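No paired analysis was possible because the numbered EP400 immunoprecipitations came as 1 list, their inputs were not analysed here, and every other group has 1 library. Of 271 alternative values, 214 kept direction and side of the 2-fold line or moved little, 21 moved, 20 reversed, 11 fell short of 2-fold and 5 passed it. The count of members at least 2-fold lower includes EP400, the target of the siRNA, under each of these scalings. This count was 4 as deposited (22.9% of all genes) and 1 under median centring (15.6%). It was 1 under TPM with rows of 200 nt or more (5.39%) and with all rows (5.25%). The count was 2 when centred by gene density (10.9%) or by chromosome (13.5%). The count at least 2-fold higher was 0 as deposited (6.11% of all genes) and 1 under median centring (10.8%). It was 2 under both TPM scalings (30.9% and 27.6%), and 0 by gene density (8.70%) and by chromosome (9.95%). The members' median, -0.29 as deposited, was -0.089 under median centring, 0.45 and 0.42 under TPM (rows of 200 nt or more, and all rows), -0.13 by gene density, -0.18 by chromosome, -0.40 at a mean FPKM of 5 or more and -0.17 over coding transcripts. Direction reversed for KAT5 (0.026 by median centring, 0.58 and 0.55 by TPM, 0.86 by gene density, 0.32 by chromosome), TRRAP (0.18 by median centring, 0.70 and 0.65 by TPM, 0.25 by chromosome), EPC1 (0.33 and 0.30 by TPM, 0.42 over coding transcripts), RUVBL2 (0.0028 by gene density, 0.019 by chromosome) and BRD8 (0.031 by median centring, 0.57 and 0.54 by TPM, 0.022 by gene density). Members with H3.3 after EP400 siRNA numbered 5 with ends of 5 kb and 6 over whole loci, and members with H3K4me1 numbered 3 with ends of 1 kb and 3 among peaks at or above the median width. Members that lost Pol II numbered 0 over whole loci and 3 among wide peaks, members that gained H3.3 numbered 0 over whole loci, and members that lost H2AZ numbered 2 among wide peaks. The cause of these shifts was not tested, and the share of all genes was not computed for these peak alternatives. The coding-transcript, short-transcript and start-alone alternatives were chosen after seeing the data. Peak lists without heights or depth cannot separate a lost peak from a shallower library, and the RNA limits reach 0 for most transcripts.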
